A study of Equus caballus with 15 samples.

Results

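Equine monocyte-derived macrophages that had received IL-1ß together with platelet rich plasma (PRP) lysate were compared with macrophages that had received neither. Its samples were taken from the sample labels, and it sets 3 libraries of PRP lysate plus IL-1ß against 3 untreated libraries, 6 of the 15 of the study. The other 9 libraries entered the limma fits through the estimate of the spread. Macrophages were grown over 5 days from blood mononuclear cells of donor horses with 30 ng/ml M-CSF, in all groups alike. In the PRP lysate group IL-1ß at 10 ng/ml and the lysate, at 25% of the culture medium, were given at the same time for 24 h, and the untreated group received 0 ng/ml IL-1ß and 0% lysate. The 3 PRP lysate libraries came from lysates of 3 donor horses, so they replicate the product. The untreated libraries were technical replicates of the macrophages, and blood donors of macrophages and of lysate were different horses. According to the study's methods the cells were washed after treatment and cultured for a further day before RNA was taken, while the sample labels describe collection after washing. IL-1ß and the lysate entered together, so this comparison gives their joint difference from untreated, and the libraries of IL-1ß alone that the study also holds were not used to separate them. The untreated libraries also serve as controls for other conditions of the study.

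Macrophages are phagocytes that clear dying cells and debris through scavenger and bridging receptors, and that secrete chemokines and cytokines when they sense injury. IL-1ß is a cytokine released in inflamed joints that acts through its receptor and NF-kB to induce such genes. PRP lysate is made by freezing plasma enriched in platelets, which releases the growth factors and chemokines that platelets store, and it is injected into joints of horses with osteoarthritis. CSF1R, the receptor for M-CSF, maintains the survival and identity of blood-derived macrophages.

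The 6 libraries held between 28410734 and 41825496 reads on genes, and levels are given as CPM, each gene's reads scaled to the same library total. PRP lysate replicate 1 stood apart from the other libraries. On the first principal component of the 6 libraries, which carried 60.1% of the variance, it lay at 67.4 while the other 5 lay between -32.1 and 0.163. On the first component of all 15 libraries it lay at 51.7 and replicate 3 of IL-1ß alone at 103, beside -26.6 to 20.7 in the other 13, and without the IL-1ß group 224 rather than 186 genes were called. The second component carried 26.4%, and on it the PRP lysate libraries lay at -3.29, -20.3 and -31.9 and the untreated libraries at 29.5, 11.1 and 14.7. The mean log2(CPM + 1) of 65 cytosolic ribosomal protein genes was 9.26 in PRP lysate replicate 1 and between 8.33 and 8.71 in the other 5 libraries. Counts of called genes are therefore given with and without PRP lysate replicate 1. Counts with library weights and with a ribosomal covariate are given further below. Why this library stood apart was not tested.

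Defining markers of macrophages were present in all 6 libraries, with 17 of 20 marker genes tested and a summed level of 5413 to 8507 CPM with PRP lysate and 9254 to 11460 CPM in untreated cells. CD68, a lysosomal glycoprotein of macrophages, lay at 1339.7, 1929 and 1712 CPM with PRP lysate and at 2157, 1990.0 and 1911 CPM in untreated cells, whereas the coreceptor CD14 was between 2.19 and 2.86 CPM in every library. T cell markers were present too. The summed level of the T cell list was 2597, 1443 and 1641 CPM in PRP lysate replicates 1 to 3 and 1349, 1342 and 1718 CPM in the untreated replicates, and that of the NK and cytotoxic list was 1577, 631.3 and 687.3 CPM against 525.4, 360.8 and 607.2 CPM. Only PRP lysate replicate 1 exceeded all untreated libraries on the T cell list, while all 3 did so on the NK and cytotoxic list. B cell markers summed to 130.2 to 180 CPM with PRP lysate and 183 to 209.2 CPM in untreated cells, and endothelial markers to 69.59 to 110.4 CPM against 192.3 to 326.9 CPM, both lower with PRP lysate without overlap. Most of the endothelial difference was that of PECAM1, without which the sums overlapped at 21.3, 38.2 and 39.1 CPM against 28.7, 46.7 and 41.7 CPM. Higher without overlap were the dendritic cell list, at 734.5 to 972 CPM against 540.7 to 729 CPM, although LAMP3, its 1 called gene of 7 tested, fell (log2 fold change -1.40, limma adjusted p = 0.0476, not called without PRP lysate replicate 1 at 0.104), and the neutrophil list, at 485.6 to 546.3 CPM against 325 to 389.2 CPM, of which 1 gene, CSF3R, was tested. The platelet and megakaryocyte list summed to 136.3, 397.3 and 391.6 CPM with PRP lysate and 190.7, 308.4 and 230.2 CPM untreated, so lysate replicates 2 and 3 exceeded all untreated libraries and replicate 1 lay below them. Of that list 9 genes were under 1 CPM in all 6 libraries, among them the platelet receptor genes GP1BA, GP5 and GP9, and PPBP, a member, was called higher. The part of these cell types in the results was not tested. In these bulk libraries fewer cells of a type and less RNA per cell cannot be told apart.

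Tests covered the 11628 genes whose mean over the 15 libraries reached 1 CPM. Called here means a limma adjusted p no higher than 0.05 together with a change of 2-fold or more, and 186 genes (1.6%) were called. Falls outnumbered rises, with 155 genes (1.33%) lower and 31 genes (0.267%) higher with PRP lysate plus IL-1ß. The values of the 3 PRP lysate and the 3 untreated libraries did not overlap in any of the 186, against 18.6% of all genes tested (10.1% higher and 8.41% lower). Among the called genes 41 fell and 4 rose by at least 4-fold, and 34 had no gene symbol. The median log2 fold change over all genes tested was 0.04. Without PRP lysate replicate 1, 154 genes (1.32%) were called, 41 higher (0.353%) and 113 lower (0.972%). Of the 186, 124 stayed called without it (21 higher and 103 lower), all 186 kept their direction, and 30 further genes were called, 20 of them higher. In 114 of the 155 downregulated genes PRP lysate replicate 1 had the lowest of the 3 PRP lysate values, and in 14 of the 31 upregulated genes it did so too. Leaving out untreated replicate 1 or 2 lowered the count to 89 and 110, and 83 genes (11 higher and 72 lower) were called whichever of the 6 libraries was left out. A fit of only the 6 libraries compared called 50 genes, and 259 when PRP lysate replicate 1 was also left out. Of 63 called genes chosen by the naming rule 15 kept their call in it, namely CD163, MERTK, CTSC, TGM2, HK3, SLC22A3, GSDME, ACVRL1, C1QC, CFP, IRF7, CCL22, IFNG, IL13 and IL17A, and the other 48 did not.

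**Figure D1:**
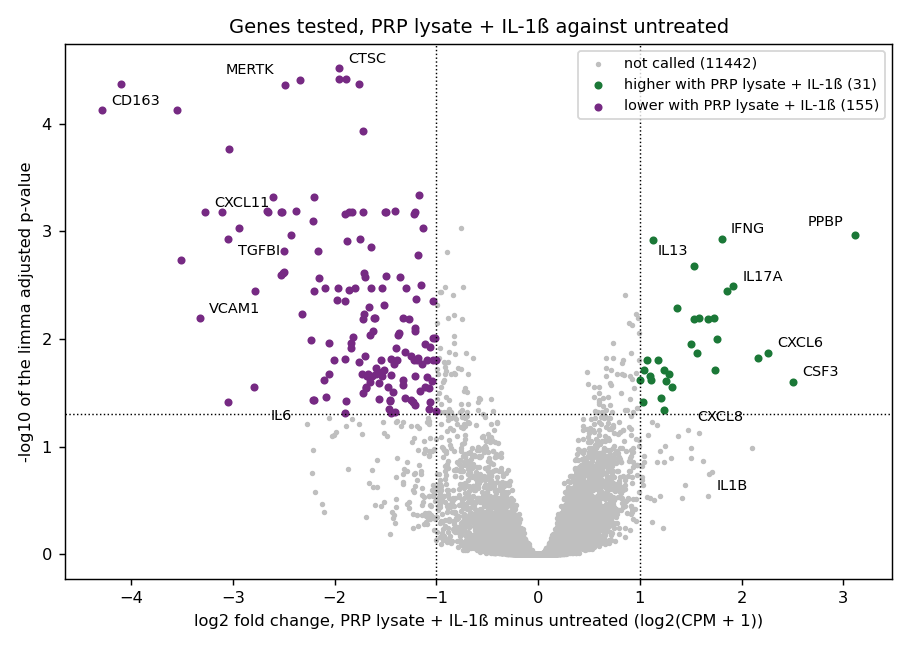
Each point is 1 of 11628 genes, with the log2 fold change of PRP lysate plus IL-1ß minus untreated on log2(CPM + 1) on the x axis and -log10 of the limma adjusted p-value on the y axis. Dotted lines mark the thresholds, and the 155 genes called lower reach further from 0 than the 31 called higher, with CD163 at -4.28 and PPBP at 3.11.

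Genes of chemokines that attract neutrophils were among the largest rises. PPBP encodes the precursor of a platelet and myeloid chemokine and lies on chromosome 3 of EquCab3.0 from 63628303 to 63629198. Its level was 10.7, 39.1 and 31.8 CPM in the PRP lysate replicates and 1.23, 1.6 and 3.10 CPM in the untreated replicates. All PRP lysate values lay above all untreated values, and PPBP rose by a log2 fold change of 3.11 ± 0.40 (SE, limma adjusted p = 0.00109), or 3.66 without PRP lysate replicate 1. CXCL6, a neighbouring chemokine gene on chromosome 3 (63638101 to 63640268), was at 258, 960 and 882 CPM against 111, 106.6 and 164 CPM. Replicate 1 was nearer to the untreated libraries than to the other lysates, and the log2 fold change was 2.26 ± 0.43 (SE, limma adjusted p = 0.0134), or 2.87 without it. The CXCL6 call was lost without PRP lysate replicate 3, untreated replicate 1 or untreated replicate 2 (limma adjusted p from 0.0633 to 0.0760). CXCL1, which also acts on neutrophils, was at 1829, 3061 and 2505 CPM against 721, 627 and 1290.2 CPM and rose by 1.53 ± 0.26 (SE, limma adjusted p = 0.00644).

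The positions of these genes were compared after their values were seen. Between 63470014 and 63720939 on chromosome 3 the annotation places CXCL1, PPBP, CXCL6 and CXCL8, with 1 listed gene that was not tested between CXCL1 and PPBP, and CXCL1, PPBP and CXCL6 were called higher. CXCL11 and CXCL10, which attract T cells and are induced by interferon, lie on the same chromosome between 61858455 and 61891313, and both were called lower. The listed span of ART3 covers both, and strand use in counting was not stated, so reads of overlapping genes may be shared. CXCL1 has near-identical copies in mammals, and its value is uncertain to the extent that reads were split between them.

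Of 13 CXC chemokine and receptor genes tested, 3 were called higher and 2 lower, beside 0.267% and 1.33% of all genes tested, with a median log2 fold change of 0.21 beside 0.04. Without PRP lysate replicate 1 the counts were 4 and 2, beside 0.353% and 0.972%. Of 19 CC chemokine and receptor genes, 2 were called in each direction, beside the same shares, and the median was -0.34. Without that replicate limma called 2 higher and 0 lower, and the median was -0.04. CCL22, a ligand that attracts regulatory and type 2 helper T cells, was at 558, 551 and 460 CPM with PRP lysate and 103, 132 and 213 CPM untreated. The lysates agreed closely, and the log2 fold change was 1.86 ± 0.29 (SE, limma adjusted p = 0.00354). CCL3, a ligand for receptors on monocytes and T cells, was at 3216, 3489 and 3358 CPM against 1419, 1307 and 2172 CPM, a log2 fold change of 1.07 ± 0.21 (SE, limma adjusted p = 0.0157). Its call was lost without PRP lysate replicate 3 or untreated replicates 1 or 2 (limma adjusted p up to 0.0982), and its span overlaps that of ENSECAG00000022992. In the opposite direction, CCL14, a monocyte attractant, was at 1.80, 5.16 and 5.53 CPM against 19.6, 13.1 and 12.9 CPM, and CCR6, the receptor for CCL20, at 2.28, 4.26 and 3.66 CPM against 13.8, 13.8 and 8.48 CPM. Both fell with all libraries (log2 fold changes -1.72 and -1.56). The CCL14 call was lost without PRP lysate replicate 1 or any 1 untreated replicate (limma adjusted p from 0.0603 to 0.1745), and the CCR6 call without PRP lysate replicates 1 or 3 or untreated replicates 1 or 2 (limma adjusted p from 0.0704 to 0.1349).

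**Figure D2:**
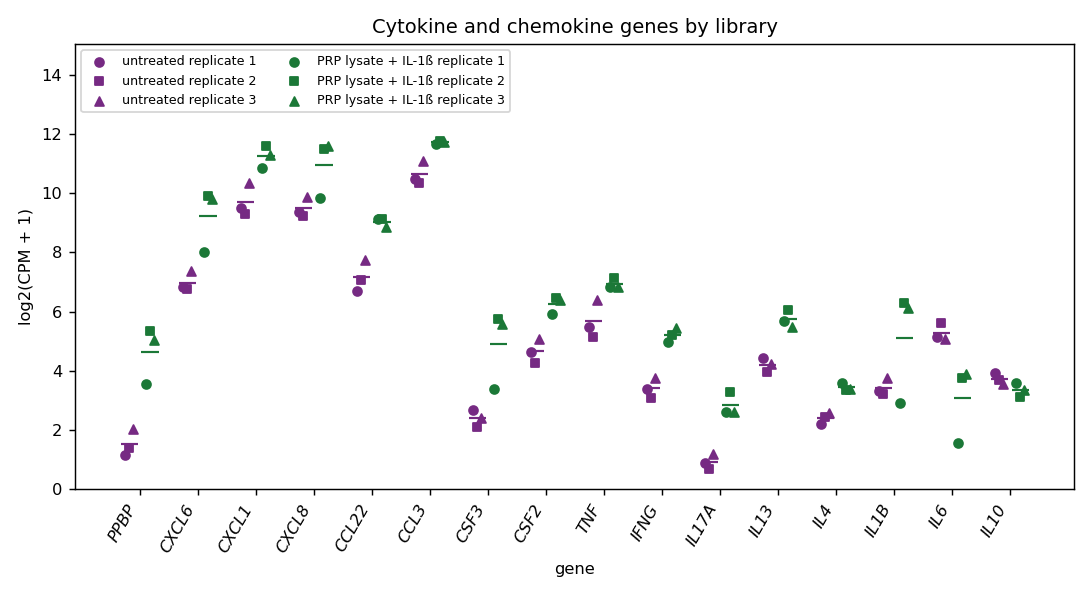
The y axis gives log2(CPM + 1) of 16 cytokine and chemokine genes on the x axis, with 1 symbol per library (untreated purple, PRP lysate plus IL-1ß green) and a bar at each group's mean. PRP lysate replicate 1 (green circle) lies well below the other lysates for CSF3, CXCL6, CXCL8 and IL1B, while IFNG, IL13, CCL22 and CCL3 are alike in the 3 lysates.

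Of 21 inflammatory cytokine genes tested, 8 were called higher (CSF3, IL17A, IFNG, CSF2, IL13, TNF, LTA and IL4) and 2 lower (IL6 and IL27), beside 0.267% and 1.33% of all genes tested. The median log2 fold change was 0.64, beside 0.04 for all genes tested. Without PRP lysate replicate 1 the median was 0.49 with 7 genes called higher and 1 lower, beside 0.353% and 0.972% of all genes tested. CSF3, which encodes the granulocyte growth factor G-CSF, was at 9.49, 52.9 and 46.6 CPM against 5.41, 3.34 and 4.27 CPM. It rose by 2.51 ± 0.54 (SE, limma adjusted p = 0.0249), and by 3.26 (limma adjusted p = 0.00119) without PRP lysate replicate 1, but the call was lost when any of the other 5 libraries was left out (limma adjusted p from 0.0656 to 0.122). CSF2, encoding GM-CSF (chromosome 14, 42770877 to 42773246), was at 60.1, 85.9 and 82.2 CPM against 24.0, 18.4 and 32.9 CPM and rose by 1.58 ± 0.27 (SE, limma adjusted p = 0.00638), a call that held without any 1 library. The span of CSF2 overlaps that of P4HA2. TNF, a central inflammatory cytokine of macrophages, was at 112, 139 and 112 CPM against 43.2, 34.1 and 83.6 CPM. Its rise of 1.26 ± 0.27 (SE, limma adjusted p = 0.0246) was called without untreated replicate 3 and lost without each of the other 5 libraries (limma adjusted p from 0.0575 to 0.134).

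Several of the raised cytokines are known mainly as products of T and NK cells. IFNG, which encodes interferon gamma and lies on chromosome 6 from 84510150 to 84513296, was at 30.1, 36.1 and 43.0 CPM with PRP lysate and 9.50, 7.40 and 12.6 CPM untreated. The lowest lysate value was above the highest untreated value, and IFNG rose by 1.80 ± 0.24 (SE, limma adjusted p = 0.00117), or by 1.93 without PRP lysate replicate 1. IL17A, which induces neutrophil chemokines in tissue cells, was at 5.13, 8.82 and 5.03 CPM against 0.843, 0.589 and 1.29 CPM, a log2 fold change of 1.92 ± 0.29 (SE, limma adjusted p = 0.00323). IL13, a type 2 cytokine (chromosome 14, 42223417 to 42226339), was at 50.7, 64.7 and 43.3 CPM against 20.6, 14.6 and 17.6 CPM, a log2 fold change of 1.53 ± 0.22 (SE, limma adjusted p = 0.00211). The calls of IFNG, IL17A and IL13 held without any 1 library. IL4, which lies next to IL13, was at 11, 9.30 and 9.43 CPM against 3.63, 4.40 and 4.90 CPM and rose by 1.04 ± 0.21 (SE, limma adjusted p = 0.0194), a call lost without PRP lysate replicates 1 or 3 or untreated replicates 1 or 2 (limma adjusted p from 0.0584 to 0.113). LTA, encoding lymphotoxin alpha and chosen after its values were seen, rose by 1.21 (limma adjusted p = 0.0351) and was called in 1 of the 6 fits without 1 library, the one without PRP lysate replicate 1 (limma adjusted p from 0.0616 to 0.173 in the other 5).

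Marker genes of T and NK cells were read beside these cytokines. Of 13 T cell marker genes tested, 0 were called by limma in either direction with or without PRP lysate replicate 1 (with all libraries 5 had an unadjusted p of at most 0.05, and 1 passed adjustment in each of limma, DESeq2 and edgeR), with a median log2 fold change of 0.55, or 0.21 without that replicate. CD3E, a chain of the T cell receptor complex, was at 507, 172 and 209 CPM with PRP lysate and 156, 140 and 220 CPM untreated, so the groups overlapped and replicate 1 alone was high. Of 10 NK and cytotoxic genes tested, 1 was called higher and 0 lower (0 by limma without PRP lysate replicate 1), beside 0.267% and 1.33% of all genes tested. In 3 PRP lysate lay above and in 2 below untreated without overlap, beside 10.1% and 8.41% of all genes tested, and the median was 0.47, or 0.15 without that replicate. GZMA, a granule protease, was called higher at 184, 127 and 165 CPM against 87.1, 50.1 and 74.2 CPM (log2 fold change 1.18, limma adjusted p = 0.0155, lost without PRP lysate replicates 1 or 3 or untreated replicate 2 at 0.0601 to 0.0766). NKG7 and GNLY, also of cytotoxic granules, were at 354, 112 and 113 CPM and at 443, 135 and 157 CPM with PRP lysate, against 88.4, 52.4 and 96.2 CPM and 99.3, 63.5 and 138 CPM untreated, while the NK cell receptor NCR1 was at 0.752, 1.91 and 2.53 CPM against 5.72, 4.20 and 2.77 CPM, and none of the 3 was called. CD4, which equine T cells and some macrophages carry, was at 194, 200 and 218 CPM against 389, 381 and 381 CPM, with a log2 fold change of -0.91 that missed the fold threshold (limma adjusted p = 0.0182). It fell, and it was the 1 T cell marker that passed adjustment in limma, DESeq2 and edgeR. The part of T and NK cells in the cytokine differences was not tested.

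IL1B, the gene of the cytokine that was added to the cultures as protein, was at 6.53, 76.4 and 67.9 CPM with PRP lysate and 8.96, 8.19 and 12.6 CPM untreated. Replicate 1 lay below all untreated libraries and the other lysates far above them. IL1B was not called with all libraries (log2 fold change 1.67 ± 0.67 SE, limma adjusted p = 0.285) and was called without PRP lysate replicate 1 (2.76, limma adjusted p = 0.0011). CXCL8, the neutrophil chemokine interleukin 8, was at 907, 2874 and 3058 CPM against 655, 598 and 940 CPM. Here replicate 1 lay within the untreated range and the other lysates above it. CXCL8 too was not called by limma with all libraries (log2 fold change 1.48 ± 0.39 SE, limma adjusted p = 0.0701) and was called without replicate 1 (2.05, limma adjusted p = 0.0021). With all libraries the adjusted p of CXCL8 was 0.00131 in DESeq2 and 0.0440 in edgeR, and that of IL1B 0.00323 and 0.0898.

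Of the 30 genes called only without PRP lysate replicate 1, 20 were higher and 10 lower, and those named here were chosen after their values were seen. IL31, a T cell cytokine, was at 1.21, 11 and 17.9 CPM against 0.511, 0.785 and 1.35 CPM. IL17F, a relative of IL17A, was at 0.403, 9.40 and 7.64 CPM against 0.664, 0.448 and 0.481 CPM. TREM1, a receptor of myeloid cells that amplifies inflammatory signals, was at 2.18, 14.5 and 14.1 CPM against 2.27, 1.99 and 2.83 CPM. In these 3 genes replicates 2 and 3 lay far above all untreated libraries, and replicate 1 lay within the untreated range for IL31 and TREM1 and just below it for IL17F. F3, encoding tissue factor, was at 53.0, 149 and 124 CPM against 53.3, 48.0 and 83.1 CPM, and VEGFC, a growth factor of lymphatic vessels, at 3.82, 12 and 11.9 CPM against 2.63, 3.84 and 6.28 CPM. CYP1A1 and AHRR, both induced through the aryl hydrocarbon receptor, were at 1.32, 3.56 and 5.67 CPM and at 1.85, 12.8 and 21.3 CPM with PRP lysate, against 0.204, 0.645 and 1.05 CPM and 3.6, 6.48 and 5.38 CPM. Among the lower genes, HLA-DMA, which encodes a chain of the MHC class II peptide loading factor, was at 50.9, 40.9 and 37.3 CPM against 90.0, 77.95 and 88.1 CPM, and BLVRB, a biliverdin reductase, at 134, 101 and 95.3 CPM against 217, 175 and 204 CPM. Since 1 PRP lysate library was set aside to call these genes, their PRP lysate mean rests on 2 lysates. The estimate of the spread was shared by all libraries kept in the fit, of every condition. CYP1A1 and IL17F passed the filter on low values only through the PRP lysate libraries, where they are high, so their calls are a description and support nothing further.

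**Figure D3:**
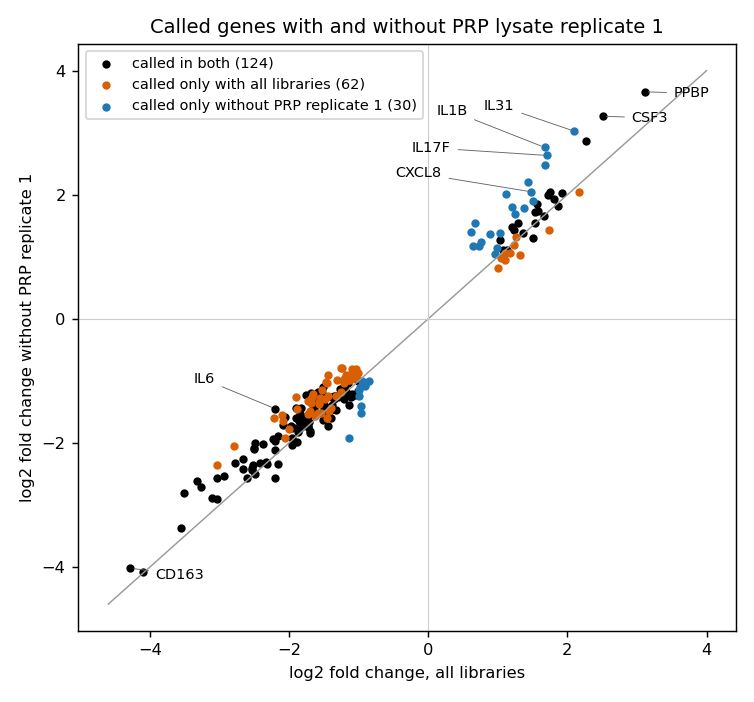
Each point is a gene called with all libraries, without PRP lysate replicate 1 or in both, with its log2 fold change from all libraries on the x axis and without that replicate on the y axis, and the line marks equal values. The 20 higher genes called only without the replicate, such as IL1B and IL17F, lie above the line, and no gene changes sign.

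Not all inflammatory genes rose. IL6, the acute phase cytokine (chromosome 4, 54607176 to 54611578), was at 1.96, 12.5 and 13.9 CPM with PRP lysate and 34.4, 48.2 and 32.3 CPM untreated. Each lysate value was below each untreated value and replicate 1 was the lowest, and IL6 fell with a log2 fold change of -2.20 ± 0.51 (SE, limma adjusted p = 0.0367). Without PRP lysate replicate 1 the fall was -1.45 (limma adjusted p = 0.0492), and the call was lost without any 1 of the untreated replicates (limma adjusted p from 0.0693 to 0.167). IL27, which encodes a subunit of a cytokine of antigen presenting cells, was at 5.24, 11.7 and 14.5 CPM against 43.8, 27.3 and 31.0 CPM, a log2 fold change of -1.68 (limma adjusted p = 0.022) that was lost without PRP lysate replicate 1 or any 1 untreated replicate (limma adjusted p from 0.0528 to 0.131). IL10, an anti-inflammatory cytokine, was at 11.1, 7.63 and 9.19 CPM against 14.1, 11.8 and 10.6 CPM, overlapping between groups (log2 fold change -0.36, limma adjusted p = 0.552).

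Proteins and prostaglandin E2 had also been measured in the culture supernatants. The genes counted here are those of the proteins that the study could detect there, and of prostaglandin synthesis. Among the proteins that the study reports as below detection are G-CSF, GM-CSF, IL-13 and IL-17A. Their genes CSF3, CSF2, IL13 and IL17A, which were called higher, are not counted here. Of the 12 genes counted, 4 were called higher (CXCL1, IFNG, TNF and IL4) and 2 lower (IL6 and CXCL10), beside 0.267% and 1.33% of all genes tested. The median log2 fold change was 0.73, beside 0.04 for all genes tested, or 0.59 without PRP lysate replicate 1. TNF and IL4 were not called without that replicate, IL1B and CXCL8 then were, and the other 4 kept their call. PTGS2, the inducible cyclooxygenase, was at 2.10, 12.5 and 13.9 CPM against 18, 24.4 and 15.5 CPM (log2 fold change -1.23, limma adjusted p = 0.421), with replicate 1 again the lowest. PTGES, the prostaglandin E synthase that acts after it, was at 4.08, 1.17 and 0.739 CPM against 1.02, 0.953 and 1.92 CPM, and its log2 fold change of 0.24 turned to -0.22 without PRP lysate replicate 1. CCL5, a chemokine of T cells, overlapped between groups at 2126, 1395 and 1308 CPM against 1235, 884 and 1478 CPM. PLA2G4A, the phospholipase that releases arachidonic acid for prostaglandins, was at 3.65, 9.42 and 11.2 CPM against 31.8, 39.7 and 21.3 CPM. It fell by 1.88 on the log2 scale (limma adjusted p = 0.0379), a call lost without PRP lysate replicates 1 or 2 or untreated replicates 1 or 2 (limma adjusted p from 0.0533 to 0.1797).

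Scavenger and clearance receptors included the largest fall of a gene with a symbol. CD163, the receptor for complexes of hemoglobin and haptoglobin, lies on chromosome 6 from 35896420 to 35918134. Its level was 7.34, 13.3 and 13.4 CPM in the PRP lysate libraries and 302, 281 and 147 CPM in the untreated libraries, so the highest lysate value was far below the lowest untreated value. CD163 fell with a log2 fold change of -4.28 ± 0.39 (SE, limma adjusted p = 7.48e-05), and of -4.02 without PRP lysate replicate 1 (limma adjusted p = 0.000468). CD163L1, its neighbour on chromosome 6 (35823740 to 35878437) and a member of the same receptor family, was at 1.72, 1.36 and 1.87 CPM against 17.7, 17.5 and 5.62 CPM, a log2 fold change of -2.32 ± 0.38 (SE, limma adjusted p = 0.00583). The calls of both held without any 1 library. CD36, which takes up oxidised lipoproteins and binds thrombospondin, was at 20.9, 77.2 and 58.1 CPM against 185, 277 and 154 CPM. It fell by 2.10 on the log2 scale (limma adjusted p = 0.0239), a call lost without PRP lysate replicates 1 or 3 or untreated replicates 1 or 2 (limma adjusted p from 0.0522 to 0.129), and its listed span overlaps SEMA3C.

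Of 16 scavenger receptor genes tested, 3 or 18.8% were called lower, beside 1.33% of all genes tested, and 0 higher, with a median log2 fold change of -0.64, and all 16 had a negative log2 fold change. In 7 of the 16 the groups did not overlap and PRP lysate was lower, beside 8.41% of all genes tested. The median was -0.34 with 2 called lower, beside 0.972% of all genes tested, when PRP lysate replicate 1 was left out. Of 19 heme and iron genes, 2 or 10.5% were called lower, beside 1.33% of all genes tested (3 without that replicate, beside 0.972%), namely CD163 and ACO1, the cytosolic aconitase that also senses iron. ACO1 was at 94.5, 130 and 115 CPM against 267, 274 and 216 CPM, a log2 fold change of -1.15 (limma adjusted p = 0.00314) that held without any 1 library.

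Among 19 efferocytosis genes, which serve the uptake of dying cells, 3 or 15.8% were called lower (MERTK, CD36 and C1QC), beside 1.33% of all genes tested, and 0 higher, with a median log2 fold change of -0.25 beside 0.04. Without PRP lysate replicate 1 the counts were 2 and 0, beside 0.972% and 0.353% of all genes tested, and the median -0.32. MERTK, a receptor tyrosine kinase that recognises bridging proteins on apoptotic cells, lies on chromosome 15 from 15557406 to 15659751. It was at 7.44, 9.35 and 5.56 CPM with PRP lysate and 49.4, 53.5 and 36.0 CPM untreated, and replicate 1 did not stand apart from the other lysates. The log2 fold change was -2.49 ± 0.21 (SE, limma adjusted p = 4.4e-05), and -2.50 without PRP lysate replicate 1.

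C1QC, which encodes a chain of the complement recognition protein C1q, was at 1.72, 3.01 and 1.23 CPM against 11.5, 8.19 and 9.47 CPM, a log2 fold change of -1.87 ± 0.25 (SE, limma adjusted p = 0.00122). Of 17 complement genes tested, C1QC, CFP, C1R and C1S (23.5%) were called lower, beside 1.33% of all genes tested, and 0 were called higher. The median of -0.96 was the lowest of the 44 lists, and 10 of the 17 lay below untreated without overlap, beside 8.41% of all genes tested. Leaving out PRP lysate replicate 1 gave a median of -0.86 with C1QC and C1R called lower, beside 0.972% of all genes tested. CFP, encoding properdin, which stabilises the alternative pathway convertase, was at 94.3, 118 and 98.9 CPM against 286, 211 and 251 CPM, a log2 fold change of -1.25 (limma adjusted p = 0.0142) that was lost without PRP lysate replicates 1 or 3 or untreated replicate 1 (limma adjusted p from 0.0501 to 0.0919). C1R, a protease that C1q activates, was at 17.9, 27.9 and 18.1 CPM against 57.9, 40.6 and 51.2 CPM (log2 fold change -1.20, limma adjusted p = 0.00782, lost without untreated replicate 1 at 0.0582). C1S, the protease that C1R cleaves, was at 7.52, 11.7 and 9.15 CPM against 22.0, 20.2 and 17.3 CPM (log2 fold change -1.01, limma adjusted p = 0.00986) and was not called without PRP lysate replicates 1 or 3, where it missed the fold threshold (-0.87 and -0.998), or untreated replicates 1 or 2 (limma adjusted p = 0.0675 and 0.0504).

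Of 17 macrophage and monocyte markers tested, 4 or 23.5% were called lower, among them CD163, C1QC and CSF1R, beside 1.33% of all genes tested, and 0 were higher. All 17 log2 fold changes were negative, with a median of -0.86 beside 0.04 for all genes tested. Without PRP lysate replicate 1 the median was -0.73, and CD163 and C1QC were called lower, beside 0.972% of all genes tested. CSF1R, the receptor through which M-CSF acts, was at 94.3, 244 and 207 CPM against 481, 539 and 385 CPM. Its log2 fold change of -1.46 ± 0.33 (SE, limma adjusted p = 0.0364) was called without PRP lysate replicate 2 and lost without each of the other 5 libraries (limma adjusted p from 0.0551 to 0.164). All lysate values of CSF1R were below all untreated values, and replicate 1 was the lowest.

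CTSC had the smallest adjusted p of all genes tested by limma. It encodes cathepsin C, the lysosomal peptidase that activates granule serine proteases, and lies on chromosome 7 from 59885819 to 59922283. It was at 473, 409 and 392 CPM with PRP lysate and 1772, 1586 and 1589.8 CPM untreated, with little spread in either group, and fell by 1.96 on the log2 scale (SE 0.14, limma adjusted p = 3.05e-05). Of the 47 genes of the lysosome list tested, CTSC was the 1 gene called with all libraries and without PRP lysate replicate 1 (2.13%, beside 1.33% and 0.972% of all genes tested), although the list does not hold every lysosomal protease (LGMN, outside it and chosen after its values were seen, was called lower too), and the median log2 fold change was -0.41. The list as a whole lay low, with 44 of 47 log2 fold changes negative and 24 genes below untreated without overlap, beside 8.41% of all genes tested. The lysosomal median was -0.28 without PRP lysate replicate 1. The lysosomal proteases CTSB and CTSD, which were not called, were at 4134, 6870.1 and 5857 CPM and at 2685, 2856 and 2290.0 CPM with PRP lysate, against 10188, 9653 and 8054 CPM and 4898, 3844 and 4226 CPM untreated, and were chosen after their values were seen.

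Genes of the interferon response were lower or not called, although IFNG itself rose. Of 44 interferon stimulated genes tested, 7 or 15.9% were called lower, beside 1.33% of all genes tested, and 0 higher. The median log2 fold change was -0.37, and 17 or 38.6% lay below untreated without overlap, beside 8.41% of all genes tested. When PRP lysate replicate 1 was left out the median was -0.30 with 5 called lower, beside 0.972% of all genes tested. CXCL11 was at 2.42, 13.3 and 7.67 CPM against 100, 65.6 and 55.7 CPM and fell by 3.27 on the log2 scale (SE 0.39, limma adjusted p = 0.000667). CXCL10 was at 24.3, 54.1 and 39.5 CPM against 175, 165 and 98.8 CPM, a log2 fold change of -1.90 ± 0.30 (SE, limma adjusted p = 0.00439). Both are ligands of CXCR3, a chemokine receptor of T cells, and both calls held without any 1 library.

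IRF7, the transcription factor that drives type I interferon genes, was at 34.0, 31.2 and 42.8 CPM against 101, 86.0 and 81.8 CPM, a log2 fold change of -1.30 ± 0.20 (SE, limma adjusted p = 0.00338) that held without any 1 library. Its listed span overlaps PHRF1 and RASSF7. IFIT3, an antiviral effector, was at 14.9, 45.7 and 47.2 CPM against 133, 117 and 86.8 CPM (log2 fold change -1.76, limma adjusted p = 0.0163), a call lost without untreated replicates 1 or 2 (limma adjusted p = 0.102 and 0.0753). OAS2, which senses viral double-stranded RNA, was at 36.3, 64.1 and 81.7 CPM against 177, 161 and 104 CPM and fell by 1.31 on the log2 scale (limma adjusted p = 0.0352), a call lost without PRP lysate replicates 1 or 2 or untreated replicates 1 or 2 (limma adjusted p from 0.0566 to 0.186). Its relatives OAS1 and OAS3, chosen after their values were seen, fell by 1.11 and 1.18 on the log2 scale (limma adjusted p = 0.0112 and 0.00166). OAS1 missed the fold threshold without PRP lysate replicate 1 (-0.89) and was lost without untreated replicate 1 (limma adjusted p = 0.0763), while the OAS3 call held without any 1 library.

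Genes of matrix, adhesion and growth factor reception gave several of the largest falls. TGFBI, a matrix protein induced by TGF-ß (chromosome 14, 39200003 to 39358315), was at 108, 236 and 361 CPM with PRP lysate and 2167, 2259 and 1065 CPM untreated. No lysate value came near the lowest untreated value, and the log2 fold change was -3.04 ± 0.40 (SE, limma adjusted p = 0.00117), or -2.57 without PRP lysate replicate 1. The span listed for TGFBI also covers SMAD5 and SMIM32. VCAM1, an adhesion molecule that leukocyte integrins bind, was at 2.20, 16.2 and 10.4 CPM against 121, 114 and 44.2 CPM and fell by 3.32 on the log2 scale (SE 0.56, limma adjusted p = 0.00636), or by 2.62 without PRP lysate replicate 1. ACVRL1, a type I receptor of the TGF-ß family, was at 3.09, 8.27 and 7.07 CPM against 40.6, 34.2 and 28.6 CPM, a log2 fold change of -2.38 ± 0.27 (SE, limma adjusted p = 0.000646). The calls of TGFBI, VCAM1 and ACVRL1 held without any 1 library. In the fit of only the 6 libraries compared those of TGFBI and VCAM1 were lost (limma adjusted p = 0.0553 and 0.0999).

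Other genes of this kind depended more on single libraries. VCAN, encoding the proteoglycan versican, was at 18.8, 72.1 and 95.4 CPM against 495, 612 and 257 CPM, and its log2 fold change of -3.04 ± 0.71 (SE, limma adjusted p = 0.038) was lost without PRP lysate replicates 1 or 2 or untreated replicates 1 or 2 (limma adjusted p from 0.0542 to 0.1721), and was -2.35 without PRP lysate replicate 1. NRP1, a coreceptor for VEGF and semaphorins, was at 2.23, 13.7 and 15.1 CPM against 72.7, 90.3 and 37.0 CPM, with a log2 fold change of -2.80 (limma adjusted p = 0.0276), or -2.05 without PRP lysate replicate 1, and a call lost without PRP lysate replicate 1 or untreated replicates 1 or 2 (limma adjusted p from 0.0765 to 0.139). PECAM1, an adhesion molecule of leukocytes and endothelium, was at 48.3, 71.7 and 71.3 CPM against 274, 280 and 151 CPM (log2 fold change -1.83, limma adjusted p = 0.0121), a call lost without untreated replicates 1 or 2 (limma adjusted p from 0.0685 to 0.0787). Of 38 genes of the TGF-ß family and response 3 or 7.89% were called lower and 0 higher (median -0.03). Of 39 integrin and adhesion genes 3 or 7.69% were called lower and 0 higher (median 0.03), and of 25 extracellular matrix genes 2 or 8% lower and 0 higher (median -0.13), beside 1.33% called lower and a median of 0.04 for all genes tested. Leaving out PRP lysate replicate 1, the counts called lower were 2, 2 and 1, beside 0.972% of all genes tested, and the medians 0.13, 0.09 and -0.21. In 6 of the 25 matrix genes (24%) PRP lysate lay below untreated without overlap, beside 8.41% of all genes tested. Of 23 growth factor and receptor genes 2 (NRP1 and CSF1R) were called lower and 0 higher, beside 1.33% and 0.267% of all genes tested, with a median of -0.14. Without PRP lysate replicate 1, 0 of them were called lower and 1 higher, beside 0.972% and 0.353%, and the median was 0.11. Of 19 matrix protease and inhibitor genes 0 were called by limma, with and without PRP lysate replicate 1, while with all libraries 4 had an unadjusted p of at most 0.05 and adjustment, whatever the fold, was passed by 1 in limma, 2 in DESeq2 and 1 in edgeR. Their median was -0.15, or 0.19 without that replicate. MMP9, the gelatinase, was at 12562, 16324 and 15540.1 CPM against 10319, 9645 and 10286 CPM, apart between groups but at a log2 fold change of 0.55 (limma adjusted p = 0.0729).

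**Figure D4:**
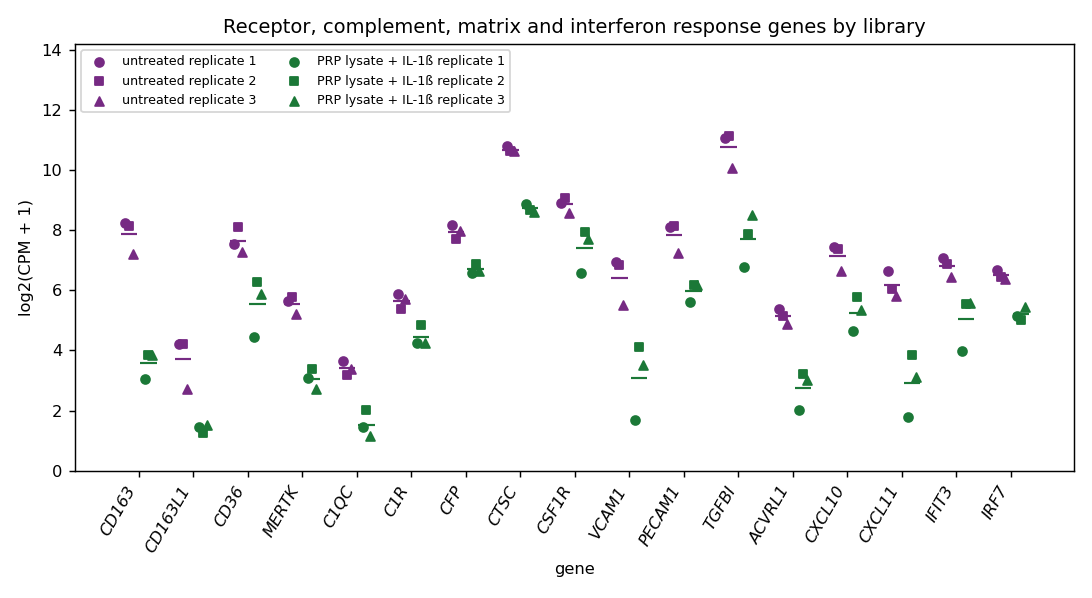
The y axis gives log2(CPM + 1) of 17 genes on the x axis, with 1 symbol per library (untreated purple, PRP lysate plus IL-1ß green) and a bar at each group's mean. Green lies below purple without overlap for all 17, with replicates close together for CTSC and IRF7 and PRP lysate replicate 1 (green circle) well below the other lysates for VCAM1 and CD36.

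Receptors that sense microbes and the inflammasome fell in part. Of 27 Toll-like and other pattern receptor genes tested, 4 or 14.8% were called lower, beside 1.33% of all genes tested, and 0 higher, and the median log2 fold change was -0.30. Of the 27, 11 or 40.7% lay below untreated without overlap, beside 8.41% of all genes tested. With PRP lysate replicate 1 left out, 3 were called lower and 2 higher, beside 0.972% and 0.353% of all genes tested. NLRC4, an inflammasome sensor of bacterial proteins, was at 0.242, 1.63 and 1.51 CPM against 5.26, 6.64 and 4.03 CPM (log2 fold change -1.63, limma adjusted p = 0.00844, lost without untreated replicate 2 at 0.0526). CLEC6A, a lectin receptor for fungal sugars, was at 0.322, 1.82 and 0.598 CPM against 4.32, 4.29 and 4.96 CPM, a log2 fold change of -1.6 (limma adjusted p = 0.00638). NLRP12 was at 0, 0.287 and 0 CPM against 1.43, 2.72 and 2.19 CPM, where 3 reads in PRP lysate replicates 1 and 3 would be 0.0806 and 0.106 CPM, and the difference was -1.496 on log2(CPM + 1) (limma adjusted p = 0.00257). NLRP3, the inflammasome sensor that leads to release of IL-1ß, was at 7.12, 19.99 and 19.1 CPM against 34.8, 38.9 and 30.2 CPM. Its log2 fold change of -1.23 (limma adjusted p = 0.038) became -0.79 without PRP lysate replicate 1, under the fold threshold, and the call was lost without any 1 untreated replicate (limma adjusted p from 0.063 to 0.1698). GSDME, which encodes a pore-forming gasdermin of lytic cell death, was at 6.29, 18 and 13.5 CPM against 105, 73.7 and 63.0 CPM and fell by 2.66 on the log2 scale (SE 0.32, limma adjusted p = 0.000667), a call that held without any 1 library.

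Among the other largest falls, ANKRD22, an ankyrin repeat protein gene on chromosome 1 (39803842 to 39832362), was at 0, 4.83 and 2.15 CPM against 35.5, 31.2 and 22.0 CPM, a log2 fold change of -3.51 ± 0.49 (SE, limma adjusted p = 0.00185), or -2.81 without PRP lysate replicate 1. SLC22A3, an organic cation transporter, was at 7.60, 10.9 and 10.7 CPM against 60.04, 64.7 and 54.6 CPM, a log2 fold change of -2.51 ± 0.29 (SE, limma adjusted p = 0.000667). RNASE6, an antimicrobial ribonuclease, was at 5.16, 9.83 and 5.03 CPM against 69.9, 41.8 and 24.4 CPM, and MILR1, an inhibitory receptor of myeloid cells, at 0, 2.46 and 0.880 CPM against 15.4, 14.3 and 7.46 CPM. All 4 calls held without any 1 library. TGM2, a crosslinking transglutaminase used as a marker of alternative activation, was at 449, 528 and 417 CPM against 1386, 1417 and 1143 CPM and fell by 1.5 on the log2 scale (SE 0.18, limma adjusted p = 0.000667). Of 18 alternative activation genes it was the 1 called lower, and CCL22 was the 1 called higher, beside 1.33% and 0.267% of all genes tested. The counts were 1 and 1 without PRP lysate replicate 1 too, beside 0.972% and 0.353% of all genes tested, and the median was -0.43, or -0.19 without it. In 6 of the 18 PRP lysate lay below and in 3 above untreated without overlap, beside 8.41% and 10.1% of all genes tested. The list does not hold CD163. HK3, the hexokinase of myeloid cells, was at 20.9, 15.1 and 18.8 CPM against 68.5, 77.0 and 63.4 CPM, a log2 fold change of -1.88 ± 0.15 (SE, limma adjusted p = 3.83e-05), while of 39 glycolysis and hypoxia genes 2 or 5.13% were called lower, beside 1.33% of all genes tested (1 without PRP lysate replicate 1, beside 0.972%), and the median was -0.05. DQA, an alpha chain of MHC class II, was at 10.2, 8.49 and 5.81 CPM against 18.5, 17.8 and 16.9 CPM (log2 fold change -1.06, limma adjusted p = 0.0117), and its call was lost without PRP lysate replicate 3, where it missed the fold threshold (-0.86), or untreated replicates 1 or 2 (limma adjusted p = 0.0675 and 0.0546). DQA was the 1 gene called among the 27 tested of the antigen presentation list (3.7%, beside 1.33% of all genes tested). The count was 1 without PRP lysate replicate 1 as well, beside 0.972% of all genes tested, and the median was -0.05, or -0.17 without it. The list does not hold HLA-DMB, a called gene chosen after its values were seen. The span listed for DQA overlaps DQB and DRB, so its value is uncertain.

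In several lists many genes had small differences of the same sign, and with all libraries none of them was called. Of 66 cell cycle and DNA replication genes tested 0 were called by limma, yet 65 had a positive log2 fold change, the median was 0.50, and 41 lay above untreated without overlap, beside 10.1% of all genes tested. An unadjusted p of at most 0.05 was reached by 38 of them, and adjustment, whatever the fold, was passed by 5 in limma, 5 in DESeq2 and 2 in edgeR. The median was 0.40 without PRP lysate replicate 1. Of 38 genes of MYC targets and ribosome biogenesis 0 were called by limma (11 at an unadjusted p of at most 0.05, and by adjusted p alone 2 in limma, 4 in DESeq2 and 1 in edgeR). The median was 0.27 (0.29 without that replicate, where 1 was called higher, beside 0.353% of all genes tested), and 17 lay above untreated without overlap. Of 36 sterol and fatty acid synthesis genes 0 were called by limma (9 at an unadjusted p of at most 0.05, and by adjusted p alone 1 in limma, 2 in DESeq2 and 0 in edgeR), with a median of 0.24 (0.28 without that replicate) and 13 genes above untreated without overlap. Cytosolic ribosomal protein genes had a median of 0.20 over 65 genes with all libraries and -0.04 without PRP lysate replicate 1. The median over 50 oxidative phosphorylation genes was -0.15 (-0.27 without PRP lysate replicate 1), and over 27 NF-kB feedback and signalling genes 0.11 (0.13 without it), again with 0 called by limma in either list (2 and 3 at an unadjusted p of at most 0.05, and by adjusted p alone 0 and 1 in limma, 1 in each in DESeq2 and 0 in edgeR). Of the 50 oxidative phosphorylation genes 45 had a negative log2 fold change, and 7 (14%) lay below untreated without overlap, beside 8.41% of all genes tested. Leaving out PRP lysate replicate 1, limma also called 0 genes of the cell cycle, sterol, ribosomal protein, oxidative phosphorylation and NF-kB lists.

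**Figure D5:**
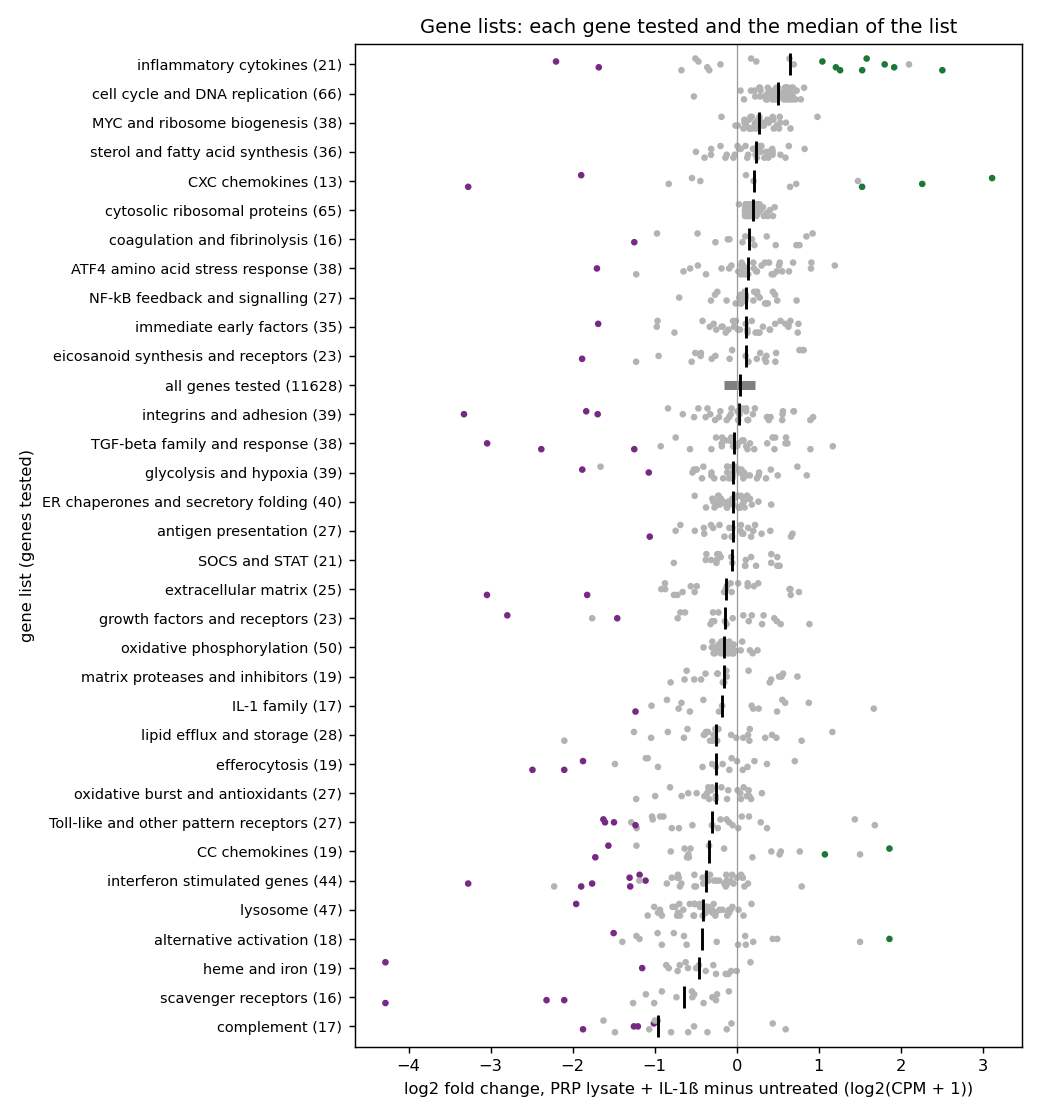
Each point is a gene of the list on the y axis (number of genes tested in brackets), with its log2 fold change of PRP lysate plus IL-1ß minus untreated on the x axis, green where called higher, purple where called lower and grey where not called, and black bars mark medians. The row of all genes tested shows its median of 0.04 and its middle 50%, and the complement and scavenger receptor lists lie to its left at -0.96 and -0.64.

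The same macrophages were treated with IL-1ß and 2 other products at the same share of the medium, autologous conditioned serum (ACS) and conditioned medium of mesenchymal stromal cells (MSC-CM), with 3 libraries each. Against ACS, PRP lysate differed in 11 of 11628 genes (0.0946%), all lower with PRP lysate. They included TGM2, CTSC, MERTK, ACVRL1, TMEM176B, SLC22A3 and CD163, which were also called against untreated in a comparison that shares the PRP lysate libraries, where TMEM176B was chosen after its values were seen. CTSC was at 1040.3 ± 131 CPM (SD, n = 3) with ACS and 425 ± 43.0 CPM with PRP lysate, a log2 difference of -1.29 (limma adjusted p = 0.00187). For MERTK the levels were 26.8 ± 1.29 and 7.45 ± 1.89 CPM and the log2 difference -1.74 (limma adjusted p = 0.00386). CD163 was at 64.6 ± 25.0 CPM with ACS and 11.4 ± 3.48 CPM with PRP lysate, a log2 difference of -2.39 (limma adjusted p = 0.0347) that was not called without PRP lysate replicate 1 (limma adjusted p = 0.0934). For TGM2, ACS was at 1745 ± 371 CPM, above the untreated 1315 ± 150 CPM, and the log2 difference of PRP lysate from ACS was -1.89 (limma adjusted p = 0.00116).

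The other 4 genes called against ACS, chosen after their values were seen, were not called against untreated. MMP1, an interstitial collagenase, was at 169 ± 59.7 CPM (SD, n = 3) with PRP lysate, 800 ± 109 CPM with ACS and 290 ± 90.2 CPM untreated. CYP27B1, the enzyme that activates vitamin D, was at 23.6 ± 8.58, 88.2 ± 15.4 and 38.3 ± 9.30 CPM in the same order, SELP, encoding P-selectin, at 3.68 ± 0.527, 17.8 ± 4.57 and 9.49 ± 4.34 CPM, and NDUFA4L2 at 1.09 ± 0.384, 6.62 ± 1.11 and 2.22 ± 0.266 CPM. Without PRP lysate replicate 1, 14 genes (0.12%) were called against ACS, 12 lower and 2 higher with PRP lysate. Besides CD163, SLC22A3 lost its call against ACS there (limma adjusted p = 0.0823). Higher genes such as PPBP, IFNG and IL17A were not called against ACS (log2 differences 1.05, 0.81 and 1.38, limma adjusted p = 0.802, 0.433 and 0.106), which does not show that the products act alike.

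Against MSC-CM, PRP lysate differed in 304 genes (2.61%), in a comparison that again shares the PRP lysate libraries. CD163 differed by -5.25 and MERTK by -2.76 on the log2 scale (limma adjusted p = 1.94e-05 and 2.25e-05). CCL3 and CCL22 were higher with PRP lysate than with MSC-CM by 2.31 and 2.14 (limma adjusted p = 8.14e-05 and 0.000974). CXCL10 and CXCL11, which fell against untreated, were not called against MSC-CM (0.37 and -1.04, limma adjusted p = 0.732 and 0.199). Without PRP lysate replicate 1, 398 genes (3.42%) were called against MSC-CM.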

How the data were processed

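Polyadenylated RNA of 15 macrophage libraries was sequenced, and the 3 PRP lysate plus IL-1ß and 3 untreated libraries are compared here. The authors trimmed reads at a Phred score of 20 and with cutadapt, aligned them with STAR 2.7.3 to EquCab3.0, counted them with HTseq on Ensembl genes in Partek Flow, and deposited CPM for 16932 protein-coding genes. Strand use and any gene filter were not given in the sources used here. All 15 columns were matched by their headers. Libraries held 28410734 to 47894071 reads on genes, recovered from the smallest CPM step (99.43% of 213968 values whole within 0.05 reads).

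limma 3.58.1 with an intensity trend was run on log2(CPM + 1) over all 15 libraries and 5 conditions, for the 11628 genes whose mean reached 1 CPM, which left 5304 genes out. Tests were two-sided, with Benjamini-Hochberg adjustment over all genes tested. Genes with an adjusted p no higher than 0.05 and a change of 2-fold or more were called. The pseudocount shrinks fold changes of genes with few CPM, and p-values measure the spread between libraries, which is technical for the untreated group. Alternatives were DESeq2 1.42.0 and edgeR 4.0.16 on recovered reads, RLE and TMM factors, a pseudocount of 0.1, other filters, fewer libraries, library weights, a ribosomal covariate, a replicate block and leaving out each library. PRP lysate and untreated libraries of equal number were not paired by the labels, and their deviations correlated at 0.32, 0.59 and -0.44.

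Named genes are genes of the supernatant analytes, the 12 largest rises and falls with a symbol and no overlap of values between the groups, and up to 5 called members (otherwise the most abundant member) of each of 44 lists written from general knowledge, with cell type markers as levels. The comparison, members and lists were chosen with earlier results of these data known. Of the called genes 40 have a listed span that overlaps another listed gene. Besides the overlaps given above, CFP and FOXP3 overlap PRPS2, OAS1 overlaps ENSECAG00000032475 and TMEM176B overlaps TMEM176A. Some genes that the rule names are not reported here. The limma, edgeR and DESeq2 fits were also run on simulated data with the same dispersion for every gene and no outlying library. That run does not bear on how a library such as PRP lysate replicate 1 affects the calls. R 4.3.3, Python 3.11.15 and matplotlib 3.10.9 were used.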

Additional observations from a re-analysis of the deposited data

How the results depend on the processing

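The count of 186 genes called (16.7% of them higher) moved by over 1.5 times under 6 planned settings of the fit and when untreated replicate 1 or 2 was left out. It was 320 with DESeq2 on recovered reads (64 higher, 185 shared with the 186), 301 with no fold threshold (82 higher), 304 with array weights (35.2% higher, from weights whose estimation stopped before convergence), 300 with the ribosomal protein level as covariate (28.7% higher), 50 with only the 6 libraries compared and 73 with the replicate number as a block and ACS left out, where the fit with no block called 143. Replicate numbers did not pair the libraries. With only the 6 libraries compared, leaving out PRP lysate replicate 1 raised the count to 259, a setting chosen after seeing the data. Leaving out 1 library at a time gave 89 to 210 genes. The other settings, edgeR on recovered reads (190), RLE (204) and TMM (208) factors, a pseudocount of 0.1 (200), no filter (163), a mean of at least 5 CPM (156) and no IL-1ß group (224), stayed within 1.5 times. Of 1317 values of the 63 called genes chosen by the naming rule under 21 alternatives, 0 reversed, 243 lost their call and 1074 kept it. The 14 genes that kept it throughout were ACVRL1, C1QC, CCL22, CD163, CTSC, GSDME, HK3, IFNG, IL13, IL17A, IRF7, MERTK, SLC22A3 and TGM2. PTGES, which was not called, turned from 0.245 to -0.155 with array weights and to -0.218 without PRP lysate replicate 1, both with all groups and with only the 6 libraries compared, and ranged from -0.218 to 0.556 when 1 library was left out. The cause of these differences was not tested. With all genes tested, 1489 had an unadjusted p of at most 0.05. Levels under 1 CPM rest on few reads, with 1 read at 0.0239 to 0.0352 CPM in the 6 libraries.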

Other observations

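Among the called genes that no list or rule named, the falls given here were chosen after their values were seen. HSD11B1, which regenerates active glucocorticoid, was at 2.47, 10.9 and 7.07 CPM with PRP lysate and 48.6, 33.7 and 33.9 CPM untreated (log2 fold change -2.50, limma adjusted p = 0.00151). IL4I1, an amino acid oxidase of antigen presenting cells, was at 30.8, 25.1 and 17.8 CPM against 144, 86.6 and 109 CPM (log2 fold change -2.16, limma adjusted p = 0.00151). LGMN, the lysosomal protease legumain, was at 541, 761 and 836 CPM against 2586, 2163 and 1874 CPM (log2 fold change -1.64, limma adjusted p = 0.00338). AOAH, which inactivates bacterial lipopolysaccharide, was at 65.8, 72.1 and 84.8 CPM against 319, 275 and 213 CPM (log2 fold change -1.83, limma adjusted p = 0.000667). HLA-DMB, which helps load MHC class II, was at 46.9, 61.2 and 49.6 CPM against 183, 187 and 170 CPM (log2 fold change -1.76, limma adjusted p = 4.31e-05). PLA2G2D, a secreted phospholipase, was at 106, 43.8 and 55.7 CPM against 320, 262 and 310 CPM (log2 fold change -2.20, limma adjusted p = 0.00354). FGR, a kinase of the Src family in myeloid cells, was at 80.8, 80.2 and 73.2 CPM against 203, 155 and 177 CPM (log2 fold change -1.17, limma adjusted p = 0.000456). The calls of these 7 genes held without any 1 library.

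Among the rises not yet described, also chosen after their values were seen, FOXP3, the transcription factor of regulatory T cells, was at 88.9, 48.2 and 75.9 CPM against 31.9, 33.6 and 36.0 CPM (log2 fold change 1.00, limma adjusted p = 0.0238), called without PRP lysate replicate 2 and lost without each of the other 5 libraries (limma adjusted p from 0.0515 to 0.121). ESM1, a secreted proteoglycan, was at 10.4, 16.4 and 20.6 CPM against 4.44, 5.02 and 7.996 CPM (log2 fold change 1.29, limma adjusted p = 0.0209), a call lost without PRP lysate replicates 2 or 3 or untreated replicates 1 or 2 (limma adjusted p from 0.058 to 0.1232). TSLP, a cytokine of epithelia and myeloid cells, was at 1.02, 3.08 and 1.76 CPM against 0.306, 0.364 and 0.511 CPM (log2 fold change 1.03, limma adjusted p = 0.0384), called without PRP lysate replicate 1 and lost without each of the other 5 libraries (limma adjusted p from 0.0676 to 0.1728). Of the 12 largest rises, TCN1, a vitamin binding protein of granulocytes, was at 90.2, 175 and 153 CPM against 30.4, 53.2 and 36.9 CPM (log2 fold change 1.75, limma adjusted p = 0.00988), a call lost without untreated replicate 1 (limma adjusted p = 0.0683). B4GALNT4, a glycosyltransferase, was at 247, 152 and 174 CPM against 55.0, 51.4 and 97.7 CPM (log2 fold change 1.51, limma adjusted p = 0.0112), a call lost without untreated replicates 1 or 2 (limma adjusted p = 0.0741 and 0.0658).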
